A study of Mus musculus with 21 samples.

Results

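The genes followed here serve the uptake of modified lipoproteins, particles, haemoglobin and dead cells: Msr1, Marco, Scarb1, Cd163, Stab1, Mertk, Axl and Gas6. These 8 genes were chosen by name, and their Ensembl IDs all have a row among the 23250 genes of the raw table. Of the 8, 7 passed the filter on low counts and were tested, and Cd163 did not. The cells were bone-marrow-derived macrophages of the C57BL/6J background, grown for 7 days with 2.5% supernatant of a line that makes GM-CSF, and the series calls them deficient in the mannose receptor. They were left untreated (0 h) or exposed to FcMR, or to its isotype control, for 4, 12 or 24 h. FcMR is a recombinant protein that joins the Fc part of human IgG1 to the outer part of the mannose receptor, and all groups share the receptor deficiency and the GM-CSF culture. The sex and age of the mice, the protein doses and the identity of the isotype protein are not given in the sources used here, and no untreated sample of 4, 12 or 24 h was analysed, so the control protein and time in culture cannot be told apart. Each of the 7 groups holds 3 libraries, 21 in all.

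Scavenger receptors are a loose set of surface proteins that bind polyanionic or modified ligands, such as oxidised lipoproteins, bacterial surfaces and cell debris, and carry them into the cell. Mertk and Axl, with Tyro3, form the TAM family of receptor tyrosine kinases, which recognise the phosphatidylserine exposed on dying cells through the bridging ligands Gas6 and protein S. In macrophages Mertk is best known for clearing dead cells in the resting or resolving state, and Axl for responses to inflammatory and interferon signals.

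The library totals ran from 5532225 to 66729533 counts, and 3 counts correspond to 0.045 to 0.542 CPM, read counts per library brought to the same total. The mannose receptor gene Mrc1 had 0 to 11 counts in every library and did not pass the filter. The 10 macrophage markers were all detected in every group, with a summed level of 21458 to 36151 CPM. Lyz2 made most of these sums, with group means of 17926 to 28184 CPM. With FcMR against isotype 2 were called higher and 2 lower at 4 and at 12 h, and 2 and 4 at 24 h. In these comparisons 17.7%, 16.1% and 20.9% of all genes were called in either direction. The 10 dendritic cell markers summed to 1440 to 2023 CPM, and GM-CSF cultures are known to hold dendritic-like cells too. Itgax made most of these sums, with group means of 867 to 1208 CPM. With isotype at 24 h 4 of the 10 were called higher and 4 lower than in untreated cells. Flt3 averaged 26.5 against 2.67 CPM there, and Cd209a 0.111 against 15.8. The 10 neutrophil markers summed to 1814 to 1993 CPM in untreated cells, 1408 to 1494 with isotype and 597 to 747 with FcMR at 24 h (Mmp8, Ltf and Ngp called lower and S100a8 higher, of 10). Mmp8 made most of both sums at 24 h, at 1248 CPM with isotype and 451 with FcMR. The other 9 markers summed to 1402 to 1632 CPM in untreated cells, 183 to 218 with isotype and 204 to 228 with FcMR at that time, and 9 of the 10 were called lower with isotype than in untreated cells. The 7 stromal and endothelial markers summed to 118 to 129 CPM with FcMR against isotype at 61.3 to 65.2 at 4 h, 63.8 to 70.7 and 39.6 to 44.9 at 12 h, and 37.8 to 39.4 and 27.2 to 33.7 at 24 h. Of the 6 tested 2, 3 and 2 were called higher with FcMR at the 3 times. Kdr made most of these sums (108 against 52.2 CPM at 4 h), and Pdgfrb averaged 11.6 against 1.59 CPM at 12 h. The 7 mast cell and basophil markers summed to 45.6 to 47.9 CPM in untreated cells. At 24 h they summed to 14.2 to 17.9 with isotype and 24.0 to 29.1 with FcMR. Against untreated cells 1, 5 and 6 of them were called lower with isotype at the 3 times. Of all genes 35.6%, 41.6% and 42.2% were called there in either direction. Lymphoid markers were at 3.57 to 6.78 and erythroid markers at or under 21.8 CPM in every library. The part of these cell types in the results was not tested, and in bulk RNA fewer cells of a type and less RNA per cell cannot be told apart. Libraries also differed in GC tilt, which is how far GC-rich genes (the top 10%) stood above GC-poor genes (the bottom 10%) in a library, as a log2 difference set against all libraries. Replicate 3 of isotype 4 h had a tilt of 0.642 beside −0.832 and −1.591 in its group, and replicate 1 of FcMR 12 h had −0.731 beside 0.7 and 0.797. In the numbers that open the sample titles these libraries stand in each other's place in the group order. Results of the followed genes whose call or direction changes without both are given both ways.

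**Figure D1:**
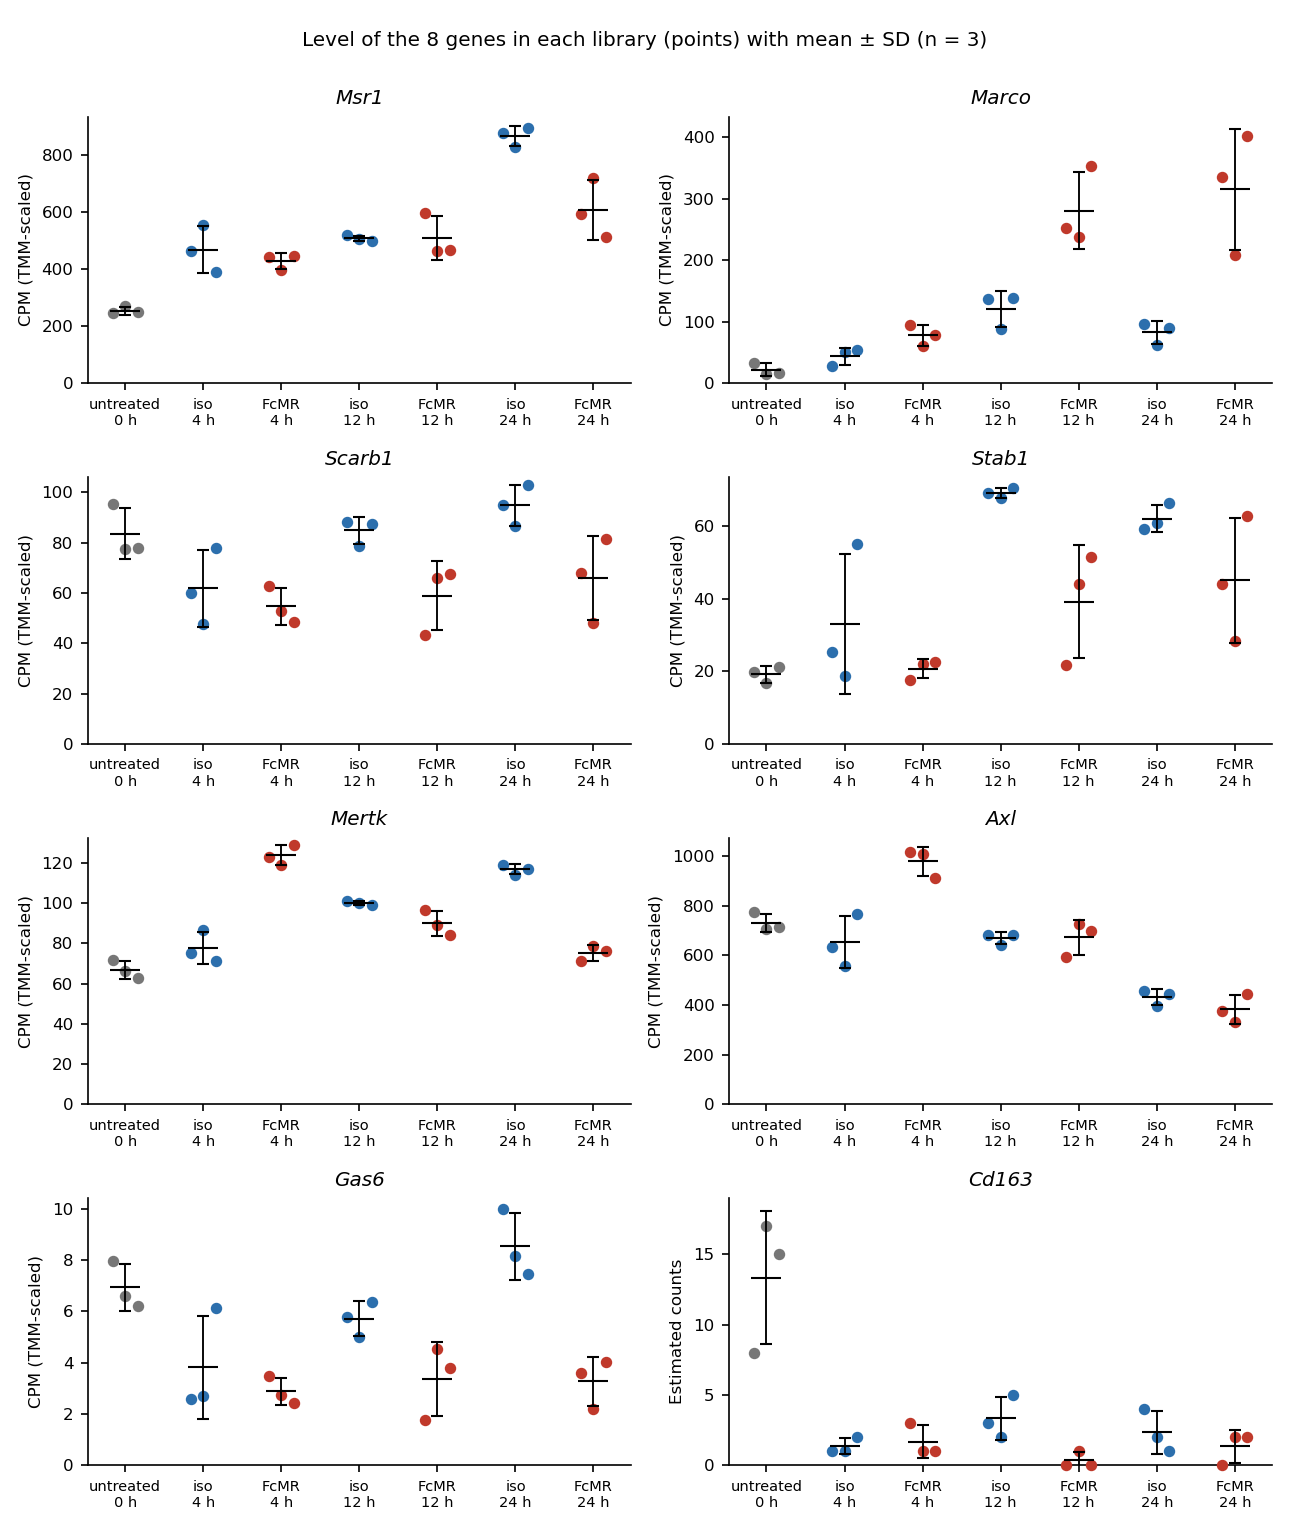
Level of each gene in every library, as CPM after TMM scaling (Cd163 as estimated counts), by group; points are libraries and bars the mean ± SD (n = 3). Marco rises above 200 CPM in the FcMR libraries of 12 and 24 h only, and Mertk is highest with FcMR at 4 h and lower than isotype at 24 h.

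Against isotype, FcMR was followed by higher Marco at 12 and 24 h, higher Mertk and Axl at 4 h, and lower Mertk, Msr1 and Gas6 at 24 h. Where FcMR is set against isotype, rose and fell mean higher or lower than isotype at the same time, not a change over time. At 4 h calls numbered 2 higher and 0 lower among the 7 tested genes at an adjusted p under 0.05 (edgeR's quasi-likelihood test, Benjamini-Hochberg over 13468 genes), and the share of all genes called was 17.7%, made up of 8.62% higher and 9.13% lower. At 12 h 1 was called, higher, beside 16.1% of all genes (8.61% higher and 7.49% lower). At 24 h 1 was called higher and 3 lower, beside 20.9% (11.4% higher and 9.44% lower). With 7 genes, 1 or 2 calls lie near these shares. The median log2 difference of the 7 genes was −0.13, −0.15 and −0.51 at the 3 times, and that of all genes −0.073, −0.017 and 0.006. The FcMR libraries lay wholly above or below the isotype libraries for 3, 5 and 5 of the 7 genes, and for 29.7%, 35.4% and 34.4% of all genes. Against untreated cells isotype was called for 3 of 7 genes at 4 h, 4 at 12 h and 5 at 24 h, 1 of them lower (Axl), where 35.6%, 41.6% and 42.2% of all genes were called.

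**Figure D2:**
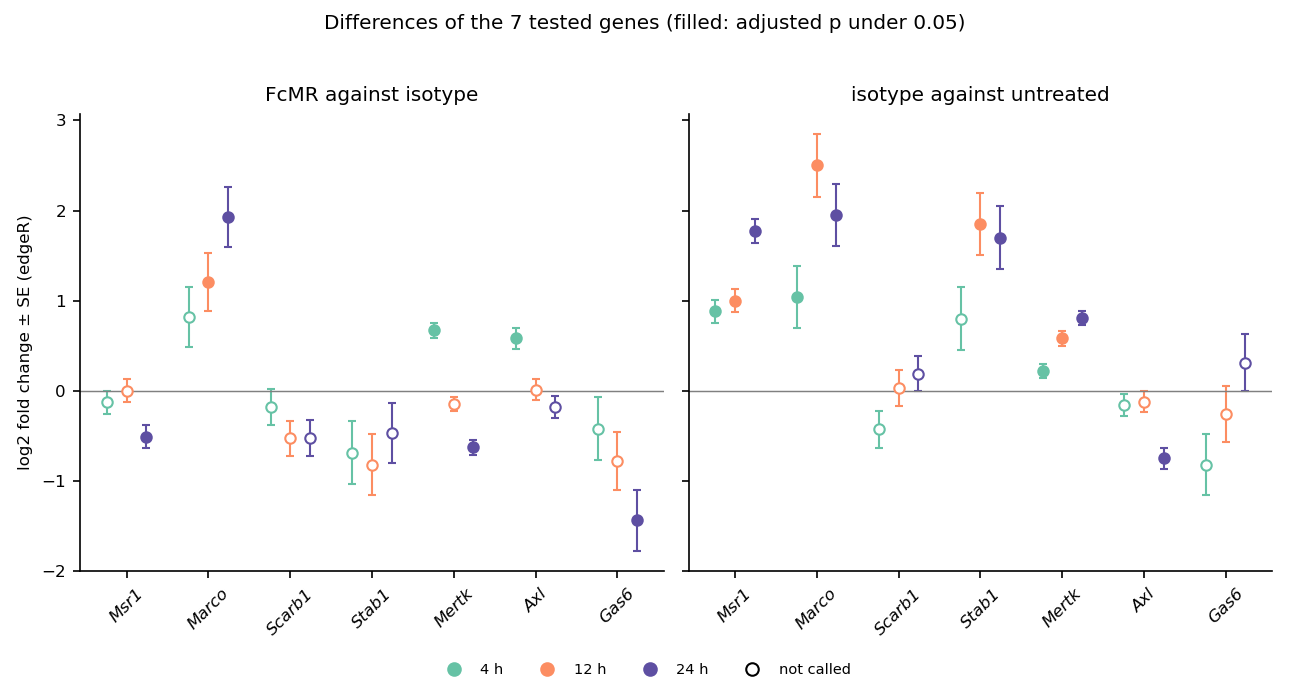
Log2 fold change (edgeR) with its SE of the 7 tested genes, FcMR against isotype on the left and isotype against untreated on the right. Colour marks the time, and filled points have an adjusted p under 0.05. Marco goes from 0.82 to 1.93 with FcMR, and Mertk goes from 0.67 to −0.63; the isotype libraries enter both panels.

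The class A scavenger receptors came first. Marco (ENSMUSG00000026390.7, GRCm38 chromosome 1, 120474538 to 120505024, minus strand, protein-coding) is a trimeric receptor with a collagen-like stalk that binds bacteria and inhaled particles. The 250 bases upstream of its start are printed, from RefSeq (GRCm38.p6), since Marco was called higher with FcMR at 2 times. Those of Stab1 and Mertk are set beside them, because these were called higher with isotype than in untreated cells at 2 and 3 times. For Mertk the RefSeq start lies 41 bases upstream of the start of the gene coordinates given for it, and for Marco and Stab1 the starts are the same. Msr1 was called at 3 times as well. Each runs 5′ to 3′ on the gene's strand, with GAGGAA, the core of the site of PU.1 (a factor that macrophage genes use widely), in capitals.
Marco, chr1:120505025-120505274, minus strand: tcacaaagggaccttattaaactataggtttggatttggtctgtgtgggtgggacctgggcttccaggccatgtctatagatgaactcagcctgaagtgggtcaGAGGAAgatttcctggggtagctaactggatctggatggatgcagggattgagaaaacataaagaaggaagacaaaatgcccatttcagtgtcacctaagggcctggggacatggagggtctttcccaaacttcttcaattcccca
Stab1, chr14:31168642-31168891, minus strand: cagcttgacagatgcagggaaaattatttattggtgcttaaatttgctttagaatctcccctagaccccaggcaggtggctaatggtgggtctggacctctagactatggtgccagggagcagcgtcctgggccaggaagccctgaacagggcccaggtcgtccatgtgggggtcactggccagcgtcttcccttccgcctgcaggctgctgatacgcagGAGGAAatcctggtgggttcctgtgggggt
Mertk, chr2:128698665-128698914, plus strand: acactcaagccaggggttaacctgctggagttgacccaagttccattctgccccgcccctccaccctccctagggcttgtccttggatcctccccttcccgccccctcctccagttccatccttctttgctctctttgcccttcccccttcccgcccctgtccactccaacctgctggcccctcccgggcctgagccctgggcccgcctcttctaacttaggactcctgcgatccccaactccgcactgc
GAGGAA begins 146 bases before the start of Marco and 30 before that of Stab1, and neither strand of the Mertk window holds it. Searched on both strands, 23.3% of 32841 mouse promoter windows of this length hold it. TGANTCA (AP-1), GAAANNGAA (the interferon-response core) and the kappa B motif were in none of these 3 windows, and in 6.75%, 7.13% and 3.9% of all windows. A match is a string of letters and not a measured site.

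At 4 h Marco was at 94.6, 60 and 79.2 CPM in FcMR replicates 1 to 3 and at 28.3, 50.1 and 53.9 with isotype. The groups did not overlap, but the log2 difference of 0.82 (SE 0.333) did not pass (edgeR adjusted p 0.102), and DESeq2 alone among the alternatives called it (0.89, adjusted p 0.037). At 12 h the FcMR libraries were at 252, 238 and 353 CPM and the isotype libraries at 137, 87.7 and 139. Every FcMR library was again above every isotype library, and Marco rose by 1.21 (SE 0.323, edgeR adjusted p 0.0141). That call rested on single libraries: it was 1.01 (adjusted p 0.069) without replicate 3 of FcMR and 1.02 (adjusted p 0.0816) without replicate 2 of isotype. At 24 h the values were 336, 209 and 402 CPM with FcMR against 96.6, 62.0 and 89.9, a rise of 1.93 (SE 0.332, edgeR adjusted p 0.000324), or 3.81-fold. This was the largest difference of the 7 genes in any FcMR comparison, and it was called in 18 of 18 alternatives (1.72 to 2.16). Replicate 2 was the lowest FcMR library at 24 h and still above every isotype library. Whether its difference grew with time was not shown: 24 h minus 4 h was 1.11 (SE 0.463, edgeR adjusted p 0.124).

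Marco was also higher with isotype than in untreated cells, where it had 33.6, 14.2 and 17.3 CPM. The log2 differences were 1.04 (edgeR adjusted p 0.0241), 2.50 (1.29e-05) and 1.95 (0.000163) at 4, 12 and 24 h. The call at 4 h, where the groups overlap, was lost without replicate 2 or 3 of either group, without both libraries that stand apart in tilt, and when the 2 groups were fitted alone (0.80 to 1.03, adjusted p 0.0716 to 0.111).

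Msr1 (ENSMUSG00000025044.16, chromosome 8, 39581685 to 39642673, minus strand) encodes the class A receptor through which macrophages take up modified LDL. It was at 244, 270 and 248 CPM in untreated cells and at 463, 552 and 388 with isotype at 4 h. It was at 518, 503 and 499 CPM with isotype at 12 h and at 876, 827 and 893 at 24 h. No isotype library overlapped the untreated ones, and Msr1 rose by 0.88 (SE 0.131), 1.0 (SE 0.131) and 1.77 (SE 0.134) at the 3 times (edgeR adjusted p 4.01e-05, 7.85e-06 and 8.07e-09). These 3 calls held in 18 of 18 alternatives each.

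With FcMR, Msr1 was at 441, 396 and 445 CPM at 4 h and 595, 461 and 467 at 12 h, and both groups overlapped isotype (log2 differences −0.13 and 0.00, edgeR adjusted p 0.56 and 0.995). At 24 h FcMR libraries were at 592, 717 and 510 CPM, all below isotype, and Msr1 was lower than with isotype by 0.51 (SE 0.13, edgeR adjusted p 0.00798). Its FcMR means still went up with time, at 427, 508 and 606 CPM, and untreated cells averaged 254. The call was lost without replicate 3 of FcMR (−0.40, adjusted p 0.0529) and on the authors' normalized values (−0.35, adjusted p 0.0811). Marco and Msr1, receptors of one class, thus differed from isotype in opposite directions at 24 h, both called.

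Scarb1 (ENSMUSG00000037936.15, chromosome 5, 125277087 to 125341094, minus strand, overlapping the unclassified model Gm42633 on the same strand) encodes the HDL receptor of class B. It was at 95.3, 77.5 and 77.9 CPM in untreated cells. At 12 h it was at 43.3, 65.8 and 67.7 CPM with FcMR against 88.4, 78.8 and 87.6 with isotype, and at 24 h at 68.1, 48.1 and 81.3 against 94.9, 86.6 and 103. FcMR was lower in every library at both times, with log2 differences of −0.53 (SE 0.199) and −0.53 (SE 0.2) that did not pass (edgeR adjusted p 0.0849 and 0.069).

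At 12 h 4 of 18 alternatives called it, and at 24 h 9 of 18. GC correction gave −0.43 (adjusted p 0.00356) and −0.44 (0.00274), and without replicate 1 of FcMR 12 h the difference at 12 h was −0.35. At 4 h the FcMR libraries, at 62.8, 53.0 and 48.3 CPM, overlapped isotype at 60, 47.6 and 78.0 (−0.18, SE 0.202, edgeR adjusted p 0.613, and 0.03 without both libraries that stand apart in tilt). Without both, the difference at 24 h was called (−0.53, adjusted p 0.0193). Isotype did not pass against untreated at any time (−0.43, 0.03 and 0.19). Without replicate 3 of isotype 4 h, the library at 78.0, Scarb1 was called lower than untreated at 4 h (−0.63, adjusted p 0.0242). Without both libraries that stand apart in tilt it was called too (−0.63, edgeR adjusted p 0.00932).

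Stab1 (ENSMUSG00000042286.13, chromosome 14, 31139013 to 31168641, minus strand) encodes stabilin-1, a large receptor that clears modified lipoproteins and matrix fragments and binds phosphatidylserine. It overlaps Nt5dc2 on the other strand, and whether counting used strand is not given in the sources used here. Untreated cells had 19.7, 16.7 and 21.2 CPM, isotype 69.1, 67.8 and 70.7 at 12 h and 59.2, 60.8 and 66.3 at 24 h. Stab1 rose by 1.85 (SE 0.347, edgeR adjusted p 0.000325) at 12 h and 1.70 (SE 0.348, edgeR adjusted p 0.000719) at 24 h, and each call held in 18 of 18 alternatives.

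At 4 h isotype had 25.3, 18.8 and 55.1 CPM, where replicate 3 stood apart. The difference from untreated of 0.80 (edgeR adjusted p 0.0832) became 0.21 without that library and 1.32 (adjusted p 0.00214) on the authors' normalized values. With FcMR, Stab1 was at 17.7, 22.1 and 22.5 CPM at 4 h, 21.7, 44.2 and 51.6 at 12 h, and 44.0, 28.5 and 62.9 at 24 h. Its differences from isotype were −0.69, −0.82 and −0.47, none called (edgeR adjusted p 0.196, 0.115 and 0.387).

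Replicate 1 of FcMR 12 h, at 21.7, stood apart from its group, and without it and replicate 3 of isotype 4 h the differences at 4 and 12 h were −0.10 and −0.53. The authors' normalized values gave −1.45 at 4 h (adjusted p 0.00235). GC correction gave −0.69 at 4 h (adjusted p 0.0124) and −0.71 at 12 h (adjusted p 0.00483). With the replicate number as a block Stab1 was called at 12 h (−0.87, adjusted p 0.0431).

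Cd163 (ENSMUSG00000008845.9, chromosome 6, 124304656 to 124330527, plus strand), the receptor for haemoglobin bound to haptoglobin, was near the limit of detection. Untreated libraries held 8, 17 and 15 counts, and the 18 treated libraries held 0 to 5. The highest treated library, at 5 counts, was replicate 3 of isotype 12 h, which was also the deepest. Summed over 3 libraries, untreated cells were 5.43-fold above isotype at 4 h (95% interval 1.96 to 20.9), 9.09-fold at 12 h (4.46 to 20.4) and 3.67-fold at 24 h (1.63 to 9.72), where the intervals cover counting error only. At 12 h the sum leans on replicate 3 of isotype, with 66729533 of the 90649333 counts of its group. As a mean over libraries Cd163 was at 0.928 CPM in untreated cells and at 0.185, 0.179 and 0.245 with isotype at the 3 times. In a fit with no filter, isotype was lower than untreated at 4 and 12 h (edgeR adjusted p 0.0415 and 0.00896) and did not pass at 24 h (0.0762). FcMR libraries held 3, 1 and 1 counts at 4 h, 0, 1 and 0 at 12 h and 0, 2 and 2 at 24 h. A difference of Cd163 from isotype was not detectable at this depth (edgeR adjusted p 0.873, 0.313 and 0.45 with no filter).

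Among the TAM receptors, Mertk (ENSMUSG00000014361.5, chromosome 2, 128698956 to 128802894, plus strand, overlapping the antisense gene Gm14011 and the small nucleolar RNA gene Gm23172) changed direction. At 4 h it was at 123, 119 and 129 CPM with FcMR against 75.1, 86.8 and 71.4 with isotype, and rose by 0.67 (SE 0.0799, edgeR adjusted p 1.42e-05). At 12 h it was at 96.6, 89.0 and 84.2 CPM against 101, 100 and 99.2, a difference of −0.15 (SE 0.0787) that did not pass (edgeR adjusted p 0.23), though the groups did not overlap. At 24 h it was at 71.0, 78.6 and 76.3 CPM against 119, 114 and 117, and fell by 0.63 (SE 0.0794, edgeR adjusted p 1.15e-05).

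The calls at 4 and 24 h held in 18 of 18 alternatives each (0.61 to 0.79, and −0.68 to −0.59). Mertk is one of 73 genes, 0.542% of those tested, that were called higher at 4 h and lower at 24 h. The FcMR difference changed by −0.82 (SE 0.112) from 4 to 12 h and by −0.48 (SE 0.112) from 12 to 24 h (edgeR adjusted p 0.000488 and 0.0327). A further test asked whether the FcMR difference changed over the 3 times, taking 12 and 24 h each against 4 h. Its edgeR adjusted p for Mertk was 2.68e-06, where 11% of all genes passed.

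In isotype cells Mertk stood above the untreated 71.5, 66.4 and 62.5 CPM by 0.22 (edgeR adjusted p 0.0423) at 4 h, 0.58 (1.12e-05) at 12 h and 0.81 (2.51e-07) at 24 h. The first of these was lost in 13 of 18 alternatives, among them RLE factors (0.21, adjusted p 0.0725) and GC correction (0.09, adjusted p 0.313). The FcMR libraries of 24 h, at 71.0 to 78.6 CPM, averaged 75.3, and untreated cells 66.8. Only replicate 1 of FcMR, at 71.0, lay within the untreated range, and FcMR was not tested against untreated cells. Of all 13468 genes 9.58% were called higher with isotype than in untreated cells at all 3 times, and 3 of the 7 genes were: Msr1, Marco and Mertk.

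Axl (ENSMUSG00000002602.16, chromosome 7, 25757273 to 25788705, minus strand) was higher with FcMR at 4 h, at 1016, 1010 and 911 CPM against 634, 558 and 766 with isotype. It rose by 0.58 (SE 0.118, edgeR adjusted p 0.00194), and the call held in 18 of 18 alternatives (0.50 to 0.72). At 12 h the groups overlapped, at 592, 727 and 698 CPM against 683, 643 and 684 (0.01, SE 0.118, edgeR adjusted p 0.991). At 24 h they overlapped too, at 375, 330 and 443 against 457, 398 and 443 (−0.18, SE 0.118, edgeR adjusted p 0.341).

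The FcMR difference thus changed by −0.76 (SE 0.167, edgeR adjusted p 0.00538) from 4 to 24 h, and the test of a change over the 3 times passed (edgeR adjusted p 0.0122). In isotype cells Axl fell from the untreated 773, 705 and 713 CPM by 0.75 at 24 h (SE 0.119, edgeR adjusted p 5.45e-05). On the authors' normalized values that difference was −0.40, again called. At 4 and 12 h it was −0.16 and −0.12 and did not pass (edgeR adjusted p 0.31 and 0.436). Axl was called lower at 4 h without both libraries that stand apart in tilt (−0.29, adjusted p 0.0374) and at 12 h with GC correction (−0.27, adjusted p 0.0255).

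Divided by transcript length, Axl stood above Mertk in every group. The ratio of Axl to Mertk in CPM per kb was 11 ± 0.416 (SD, n = 3) in untreated cells, 8.61 ± 2.17 with isotype and 8.01 ± 0.795 with FcMR at 4 h. At 12 h it was 6.76 ± 0.251 and 7.60 ± 1.23, and at 24 h 3.73 ± 0.194 with isotype and 5.14 ± 0.828 with FcMR. At 24 h the FcMR libraries, at 4.23 to 5.86, lay above the isotype libraries, at 3.51 to 3.86. At 4 and 12 h the groups overlapped.

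Gas6 (ENSMUSG00000031451.6, chromosome 8, 13465374 to 13494490, minus strand, overlapping Tmem255b on the other strand), the ligand of both receptors, was the lowest of the tested genes in CPM. It was at 7.97, 6.62 and 6.21 CPM in untreated cells. At 24 h it was at 3.6, 2.17 and 4.02 CPM with FcMR against 10, 8.15 and 7.47 with isotype, and was lower with FcMR by 1.44 (SE 0.334, edgeR adjusted p 0.00423), or 2.71-fold. The groups did not overlap, and the call held in 18 of 18 alternatives (−1.61 to −1.16), although a library of 24 h held only 33 to 102 counts.

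At 12 h Gas6 was at 1.76, 4.54 and 3.79 CPM against 5.78, 4.99 and 6.36. Every FcMR library was lower, by −0.78 (SE 0.323, edgeR adjusted p 0.121), which passed in 3 of 18 alternatives, GC correction among them (−0.64, adjusted p 0.0169). Without replicate 1 of FcMR 12 h it was −0.48. At 4 h it was at 3.47, 2.75 and 2.42 CPM against 2.59, 2.71 and 6.14, and the difference of −0.42 (edgeR adjusted p 0.479) turned to 0.15 without replicate 3 of isotype, the library at 6.14. Without both libraries that stand apart in tilt the difference was 0.15 as well (edgeR adjusted p 0.734).

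Against untreated cells isotype gave −0.82 (edgeR adjusted p 0.0657), −0.26 and 0.31. The difference at 4 h was called in 5 of 18 alternatives, DESeq2 among them (−0.84, adjusted p 0.0422). That at 24 h was called in 2 of 18, GC correction among them (0.52, edgeR adjusted p 0.0217). Without that same library the difference at 4 h was −1.38 and was called (adjusted p 0.005), and with GC correction it was −0.50.

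**Figure D3:**
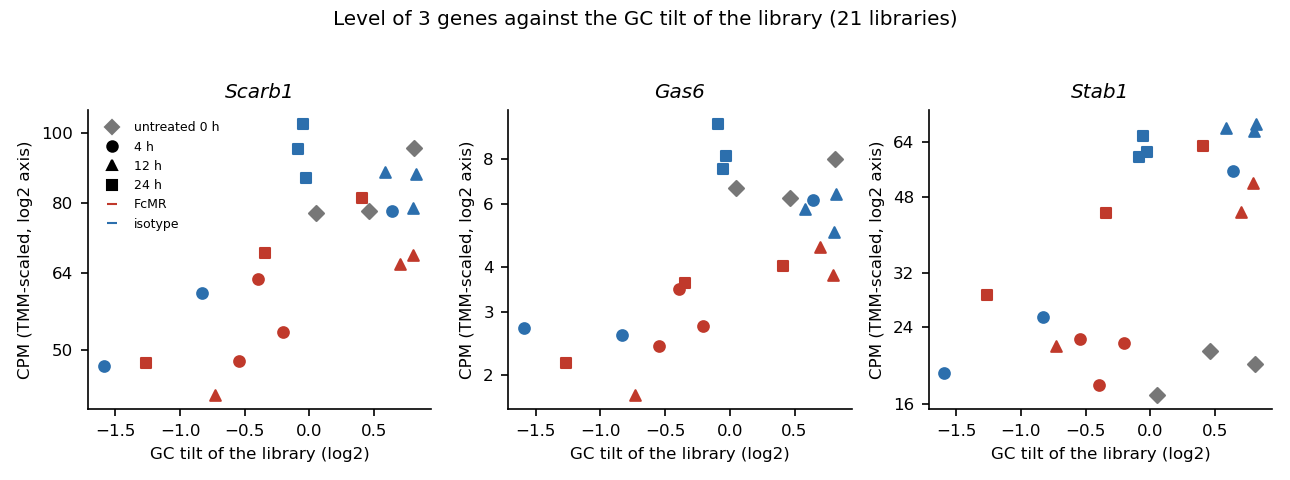
Level (CPM after TMM scaling, log2 axis) of Scarb1, Gas6 and Stab1 against the GC tilt of each of the 21 libraries; colour marks the treatment and shape the time. Libraries of lowest tilt, such as replicate 2 of isotype 4 h at −1.591, have low Scarb1 and Gas6, and the isotype libraries of 24 h lie above the FcMR libraries of near tilt for both genes.

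Across the 21 libraries Scarb1, Gas6 and Stab1 moved with the GC tilt, with Pearson's r of 0.70, 0.64 and 0.52, where Msr1, Axl, Mertk and Marco had −0.36, 0.29, −0.13 and 0.05. These describe libraries that share groups and times. With the tilt corrected, the FcMR difference of Gas6 at 24 h and those of Mertk and Axl at 4 h were called as before. Scarb1 and Gas6 moved together (r = 0.94). Over 8813 better-measured genes and the 21 libraries, the genes most like each by Pearson's r of log2 CPM were Scarb1 (0.937) and Coro1c (0.930) for Gas6, and Atg7 (0.947) and Pqlc1 (0.943) for Scarb1. For Marco they were C1rl (0.977) and Susd2 (0.956), for Msr1 Tlr8 (0.963) and Hpf1 (0.945), and for Stab1 Myo1f (0.941) and BC037034 (0.929). For Axl they were Mafk (0.968) and Kctd10 (0.960), and for Mertk Cap1 (0.898) and Fcgr1 (0.854). Mertk thus had the least close neighbour among the 7.

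The order of levels per kb of the longest coding transcript shifted with time. In untreated cells Axl was highest at 171 ± 8.68 CPM per kb (SD, n = 3), above Msr1 at 69.9 ± 3.81, Scarb1 at 33.1 ± 4.04 and Mertk at 15.5 ± 1.05. Marco at 11.3 ± 5.42 overlapped Mertk, and Gas6 at 2.72 ± 0.36 overlapped Stab1 at 2.40 ± 0.282. Cd163 was lowest, at 0.209 ± 0.058.

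With isotype at 24 h Msr1 led at 238 ± 9.47, above Axl at 101 ± 7.14, and Marco at 43.0 ± 9.54 overlapped Scarb1 at 37.7 ± 3.35. With FcMR at 24 h Msr1 at 167 ± 28.6 and Marco at 164 ± 51.0 overlapped, and both were above Axl at 89.7 ± 13.4. At 12 h with FcMR, Axl at 158 ± 16.7, Marco at 146 ± 32.4 and Msr1 at 140 ± 20.7 could not be put in order, while with isotype Marco at 63.0 ± 15.1 was below both.

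The rest of the uptake machinery was counted from 7 lists of 74 genes, the 8 included, of which 63 were tested. Against isotype, calls numbered 8 higher and 6 lower at 4 h, 9 and 18 at 12 h, and 13 and 25 at 24 h. The median log2 difference was 0.04, −0.24 and −0.24. Without the 8 genes 56 were tested, with 6 higher and 6 lower, 8 and 18, and 12 and 22. Of the 63, 22.2%, 42.9% and 60.3% were called at the 3 times, beside 17.7%, 16.1% and 20.9% of all genes, so the share at 4 h lies near the background.

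The TAM list adds Tyro3 and the other ligand, protein S (Pros1). None of its 5 genes was called lower at 4 h and 2 were higher, 2 were lower at 12 h, and 4 were lower at 24 h, or 40%, 40% and 80% of the list. Pros1 averaged 11.5 CPM in FcMR against 19.2 in isotype libraries at 12 h and 11.4 against 34.4 at 24 h, and fell by 0.74 (edgeR adjusted p 0.0036) and 1.59 (1.36e-06). Tyro3, the third receptor, fell by 0.76 (edgeR adjusted p 0.0466) and 0.83 (0.034) from levels of 4.96 and 4.12 CPM. At 4 h neither passed (−0.20 and −0.10). At 24 h the receptors Mertk and Tyro3 and the ligands Gas6 and Pros1 were thus called lower, and Axl was not called.

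Among 15 tested phosphatidylserine receptors and bridging proteins, calls numbered 2 higher and 3 lower at 4 h, 1 and 8 at 12 h, and 2 and 11 at 24 h (33.3%, 60% and 86.7% of the list), with medians of 0.06, −0.88 and −1.06. Cd300lb, an activating receptor of the CD300 family, fell by 1.95 at 4 h and 2.25 at 12 h, from 159 ± 3.75 to 33.5 ± 2.88 CPM at 12 h (edgeR adjusted p 5.19e-11). Trem2, a lipid receptor, was lower than with isotype by 1.31 and 1.51 at 12 and 24 h (edgeR adjusted p 0.00236 and 0.000577). It averaged 102, 83.8 and 105 CPM with FcMR at the 3 times, and 116, 208 and 298 with isotype. At 24 h isotype was called above untreated cells, which averaged 163 CPM (0.87, edgeR adjusted p 0.0149). Mfge8, which bridges phosphatidylserine to integrins, was lower than with isotype by 1.06 at 24 h (edgeR adjusted p 0.0259), and at 12 h its −0.88 did not pass (0.0781). It averaged 678, 564 and 750 CPM with FcMR at the 3 times, and 545, 1038 and 1564 with isotype. At 24 h isotype was again called above untreated cells, which averaged 862 CPM (0.86, edgeR adjusted p 0.0409). The complement genes C1qb and C1qc, whose product coats dying cells, fell by 1.91 and 2.20 at 24 h (edgeR adjusted p 4.86e-05 and 0.00212). Among the genes higher at 4 h was Itgav, the integrin chain that Mfge8 engages, which rose by 0.78 (edgeR adjusted p 0.000342), while the partner chain Itgb5 fell by 0.78 (0.0302).

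**Figure D4:**
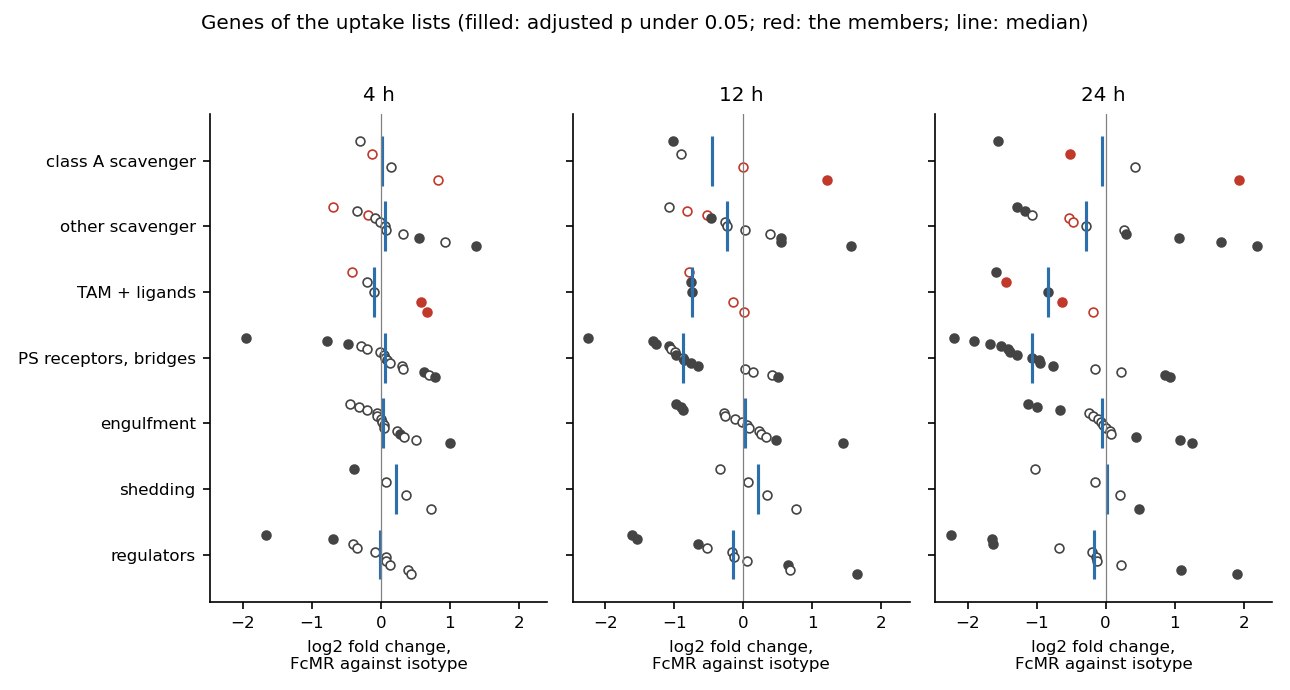
Log2 fold change, FcMR against isotype, of each tested gene of the 7 uptake lists at 4, 12 and 24 h; filled points have an adjusted p under 0.05 (edgeR), red marks the 8 genes the text follows (7 tested) and the blue line is the median of a list. The list of phosphatidylserine receptors and bridging proteins shifts from a median of 0.06 at 4 h to −1.06 at 24 h.

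Other scavenger receptors did not share one direction. Of 11 tested, calls numbered 2 higher and 0 lower at 4 h, 3 and 1 at 12 h, and 4 and 2 at 24 h, or 18.2%, 36.4% and 54.5%, the first near the 17.7% of all genes. Cd14, the co-receptor for lipopolysaccharide, rose by 1.38, 1.56 and 2.19, and Olr1, the receptor for oxidised LDL, rose by 1.67 at 24 h, from 125 ± 17.7 to 398 ± 65.7 CPM (edgeR adjusted p 2.75e-07). Cd36, a class B receptor for oxidised lipoproteins, fell by 0.46 at 12 h (edgeR adjusted p 0.0408) and 1.28 at 24 h (5.35e-06), and its −0.35 at 4 h did not pass (0.111). In isotype cells Cd36 was above untreated by 0.79, 0.55 and 1.21, each called. Of the 4 tested class A receptors 1 was called higher (Marco) and 2 lower (Msr1 and Colec12) at 24 h, and all 4 were called higher with isotype than in untreated cells at 12 and at 24 h, where 41.6% and 42.2% of all genes were called in either direction.

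Of the 10 regulators 2 were called lower at 4 h, 2 higher and 3 lower at 12 h, and 2 higher and 3 lower at 24 h (20%, 50% and 50% called). Pparg, a lipid-sensing nuclear receptor, fell by 1.54 and 2.24 at 12 and 24 h (edgeR adjusted p 3.15e-06 and 3.49e-08). Spic, a factor of iron-recycling macrophages, rose by 1.65 at 12 h and 1.91 at 24 h (edgeR adjusted p 1.57e-06 and 2.59e-07). Nr1h3 (the oxysterol receptor LXR alpha, which is known to induce Mertk) did not pass at any time (−0.35, 0.68 and 0.23; edgeR adjusted p 0.495, 0.116 and 0.664). Of 14 engulfment genes 2, 2 and 3 were higher and 0, 3 and 3 lower (14.3%, 35.7% and 42.9% called), and Xkr8, a scramblase that exposes phosphatidylserine, rose by 1.0 and 1.45 at 4 and 12 h. Of 4 genes of receptor shedding 1 was lower at 4 h (Adam10, −0.39, edgeR adjusted p 0.0481) and 1 higher at 24 h, 25% at each of these times and near the background. The latter is Adam17, the protease that cleaves Mertk from the surface, which rose by 0.49 (SE 0.0623, edgeR adjusted p 1.49e-05). Adam10, Adam17 and Colec12 were chosen for mention after their values were seen.

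**Figure D5:**
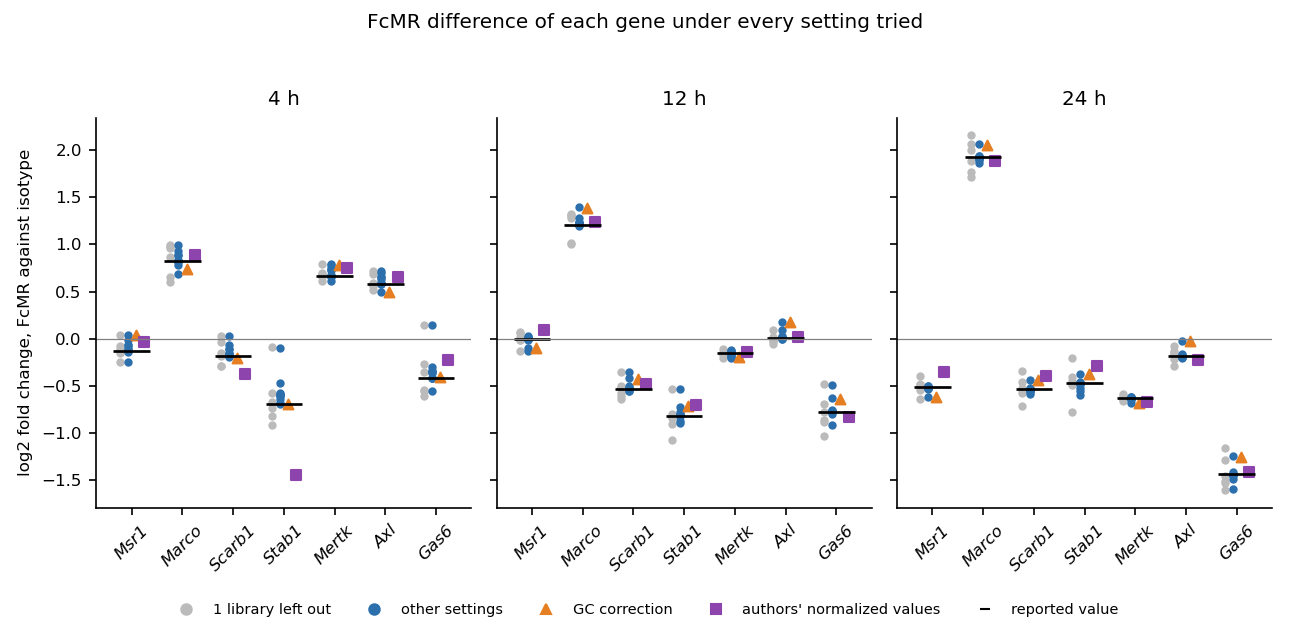
Log2 fold change, FcMR against isotype, of the 7 tested genes at 4, 12 and 24 h under each setting: grey points leave out 1 library, blue points are other settings, the orange triangle is the GC correction, the purple square the authors' normalized values and the black line the value reported. Mertk and Axl at 4 h and Marco, Mertk and Gas6 at 24 h stay on their side of 0 and were called throughout, while Stab1 and Gas6 at 4 h range from −1.45 to −0.09 and from −0.61 to 0.15.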

How the data were processed

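RNA was measured by sequencing (75 bp single-end, TruSeq RNA kit, per the labels' protocols) in 21 libraries of 7 groups, read from the sample titles. The submitters' processing notes name CASAVA 1.8.2, kallisto 0.44.0 and DESeq2, and the builds mm10 and GRCm38. The raw table holds estimated counts as whole numbers, deposited by the authors. The other table holds normalized signal, the raw value divided by the authors' factor, which differs between genes and libraries. Gene IDs without version were matched to GENCODE M21 (23187 symbols).

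One fit of all libraries was made with edgeR 4.0.16 in R 4.3.3 (TMM, filterByExpr with a minimum of 10 counts, quasi-likelihood test), with a coefficient per group, and calls took a Benjamini-Hochberg adjusted p under 0.05. Levels are CPM after TMM. Each SE is the absolute log2 difference divided by the square root of the F statistic of its edgeR test. No label says that replicates came from separate mice or cultures, so p-values measure only the spread between these samples, which may be technical. The smallest chi-square per degree of freedom between replicates was 2.96, above sampling noise. Intervals and floors cover counting error only. The 8 genes, the lists, tests and alternatives were chosen with earlier results of these data known. Of the lists, the 3 highest and 3 lowest called genes were named (average log2 CPM 1 or more), and Cd36, Tyro3, Pros1, Mfge8, Trem2 and Nr1h3 in any case; 1 gene that this rule names is not reported here. Alternatives were RLE factors, other filters, DESeq2 1.42.0, limma 3.58.1 (voom, and log2 of the authors' value + 1), only the groups compared, a GC correction (lowess span 0.3), the replicate block, thinning, and leaving out libraries. The fit was tested on simulated data, with a mean level per gene shared by all groups and chosen genes changed in FcMR at 4 h only. The simulation held no GC tilt and no differences between times, so it did not test how the fit handles them.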

Additional observations from a re-analysis of the deposited data

Results flagged for a closer look

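In the reported fit the FcMR difference of Mertk and Axl depended on the time of treatment, by an edgeR test of the difference itself. For Mertk the FcMR minus isotype log2 difference at 24 h minus that at 4 h was −1.30 (SE 0.113), with an edgeR adjusted p of 2.68e-06 over the 3 times. Mertk was higher in 3 of 3 FcMR libraries than in any isotype library at 4 h, and lower in 3 of 3 at 24 h. For Axl the change from 4 to 24 h was −0.76 (SE 0.167, edgeR adjusted p 0.00538), and the test over the 3 times gave an edgeR adjusted p of 0.0122. Axl was higher in 3 of 3 FcMR libraries at 4 h, and its groups overlapped at 24 h. Each passed the test over the 3 times in 30 of 30 alternatives, with adjusted p-values of at most 5.31e-05 for Mertk and 0.0318 for Axl. Msr1, Marco and Gas6 did not pass it in the reported fit (edgeR adjusted p 0.153, 0.256 and 0.346) but passed in 2, 1 and 1 of 30 alternatives. Msr1 passed with GC correction (edgeR adjusted p 1.65e-06), also with the replicate block added. Marco passed with both of these together (0.0296), and Gas6 without both libraries out of title order (0.0128).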

How the results depend on the processing

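Of 966 values of single genes under the alternatives, 895 kept their side of the threshold, 23 lost a call, 48 gained one and 0 called values reversed. Of the 7 genes, FcMR against isotype at 12 h called 1, and 3 with limma-voom, 2 on the authors' normalized values, 5 with GC correction, 2 when thinned to the smallest total and 0 to 1 with a library left out. Isotype against untreated at 4 h called 3, but 1 with only the groups compared, 5 without both libraries out of title order and 1 to 4 with a library left out; the lowest came without untreated replicate 2 or 3. The test of a change over the 3 times called 2 of the 7, and 4 with the replicate block and GC correction together, where Msr1 and Marco were added. Of the 63 list genes, 14 were called at 4 h with FcMR, but 8 with only the groups compared, 27 with GC correction and 26 without both libraries. At 12 h 27 were called, and 43 with GC correction. In the test of a change over the 3 times 21 were called, and 36 with GC correction and 32 without both libraries. Isotype against untreated at 4 h called 34, and 22 with only the groups compared. With a library left out these list counts ran from 11 to 21, 20 to 23, 18 to 29 and 27 to 47. Same-numbered libraries did not deviate together: correlations ran from −0.166 to 0.199 for FcMR against isotype, and no comparison had all of them over 0.1, so the numbers were not taken as pairs. With the replicate block 2 of the 7 genes were called at 12 h with FcMR instead of 1. With the block and GC correction together 4 of the 7 and 42 list genes were called at 12 h, 30 list genes at 4 h and 38 over the 3 times. Over all genes, FcMR against isotype at 4 h called 2390, and 868 with only the groups compared, 3685 with GC correction, 3882 with GC correction and the block, 3898 without both libraries and 1589 without FcMR replicate 2. At 12 h it called 2169, and 3340 with GC correction and 3511 with the block added. Isotype against untreated at 4 h called 4792, and 2881 with only the groups compared. The test of a change over the 3 times called 1484, and 925 with no filter, 967 when thinned, 2923 with GC correction, 3135 with the block added, 2616 without both libraries, 2294 without isotype 4 h replicate 3 and 973 without FcMR 4 h replicate 2. Depth limits Cd163, which held 0 to 17 counts a library. The cause of these changes was not tested, except that a fit of fewer libraries has fewer samples.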
